A study of Homo sapiens with 6 samples.

Results

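The mRNAs of 33 genes of the mitochondrial protein import machinery were measured in MDA-MB-231, a cell line from a triple-negative breast cancer. The genes were chosen by name from the 60605 genes of the deposited table; the rule used no measured value, but it was written with earlier results of these data known. Cells carried a control shRNA (shControl, 3 libraries) or an shRNA against PUS1 (shPUS1, 3 libraries), and poly(A)-selected RNA was sequenced. The methods describe a pLKO.1 lentiviral vector, packaging in 293T cells and puromycin selection for the shRNA against PUS1. The column names of the table number the knockdown as 2, and whether this is one of the study's hairpins is not stated. The labels name the libraries biological replicates without saying whether they came from separate selections. The p-values therefore measure the spread between these libraries of 1 cell line.

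Most mitochondrial proteins are made in the cytosol and are taken up through protein complexes of the mitochondrial membranes. The TOM complex of the outer membrane recognises and passes the precursors. From there they go to the SAM complex, which inserts outer membrane proteins, to the small TIM chaperones and the TIM22 translocase, which handle carrier proteins of the inner membrane, or to the TIM23 translocase, whose motor pulls precursors into the matrix, where the processing peptidase removes the targeting sequence. PUS1 is a pseudouridine synthase that modifies tRNAs, those of mitochondria included, and inherited loss of PUS1 is known as a cause of a mitochondrial myopathy with sideroblastic anaemia.

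The PUS1 mRNA was first examined as the targeted gene. Its level in CPM, counts scaled to the library total and the TMM factor of edgeR, was 14.5, 27.5 and 12.1 in shControl replicates 1, 2 and 3 and 6.57, 5.47 and 5.37 in shPUS1 replicates 1, 2 and 3. All 3 shPUS1 libraries lay below all shControl libraries. The log2 fold change of shPUS1 relative to shControl was -1.64 (standard error, SE, 0.32, edgeR adjusted p = 0.0462), and -1.20 without shControl 2 (adjusted p = 0.00311). The call was lost with limma on FPKM (adjusted p = 0.0544 and 0.0514), with a replicate block (0.0969) and, with a single library left out, in 4 of 6 fits, those without shControl 1 (0.0905) and without shPUS1 1, 2 or 3 (0.192 to 0.253). All log2 fold changes and log2 differences give shPUS1 relative to shControl, and adjusted p without another tool named are from edgeR.

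Library totals lay between 14241505 and 19625998 estimated counts. The library shControl 2 stood apart. Its log2 CPM correlated with those of shControl 1 and 3 at Pearson's r of 0.951 and 0.952 across genes, whereas shControl 1 and 3 correlated at 0.981 and pairs of shPUS1 libraries at 0.987 to 0.991. The biological coefficient of variation was 0.22 with all libraries and 0.113 without shControl 2, and the main results are therefore given with and without that library. Of 12 marker genes, VIM, CD44, EGFR, CAV1 and ANXA1, which are high in this line, were at 237.5 to 2651 CPM, and ESR1, PGR and the blood cell gene PTPRC were too low to be tested. The epithelial genes CDH1 and EPCAM were at 0 to 1.09 and 5.45 to 7.81 CPM, while the keratins KRT8 and KRT18 were at 253 to 406 and 190.0 to 233.5 CPM. Of 9 markers tested, 2 were separated between groups and lower in shPUS1, VIM and CD44, and 1 was separated and higher, CDH1. Over all genes 17.3% and 18.8% were so separated. VIM had a log2 fold change of -0.50 (edgeR adjusted p = 0.0873, and 0.0305 without shControl 2, DESeq2 adjusted p = 0.0229). CD44 had -0.29 (adjusted p = 0.169), and CDH1, near the floor, 1.47 (adjusted p = 0.28). The groups of EGFR overlapped, with 0.33 (adjusted p = 0.326). In bulk RNA, fewer cells with an mRNA and less of it per cell cannot be told apart.

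None of the 33 import genes passed the test with all 6 libraries. All 33 passed the filter on low counts, 14748 genes were tested, and 0 import genes were higher and 0 lower at an adjusted p under 0.05 (edgeR quasi-likelihood test), where 1.74% of all genes were higher and 0.841% lower. The smallest adjusted p was 0.0623, for TOMM20. At an unadjusted p under 0.05, 8 import genes were lower and 0 higher, against 12.8% and 12.6% of all genes. DESeq2 called 4 of them lower, TOMM20, TOMM7, TIMM9 and PMPCA, and 0 higher, where it called 5.68% of all genes lower and 7.28% higher.

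The direction of the fold changes was uneven. Of the 33 import genes, 27 had a log2 fold change below 0, that is 81.8%, against 52.7% of all genes tested. Their median was -0.32, against -0.03 over all genes, and the fold changes ran from -1.13 for TIMM10 to 0.14 for TOMM40L. In 11 of the 33 genes every shPUS1 library lay below every shControl library, and in 0 genes every shPUS1 library lay above, where 17.3% and 18.8% of all genes were so separated. Those 11 genes were TOMM20, TOMM70, TOMM5, TOMM6, TOMM7, TIMM9, TIMM50, DNAJC19, PAM16, PMPCA and PMPCB. The exact two-sided permutation test of a single gene cannot give a p below 0.1 with 3 libraries against 3.

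Much of this direction moved with 1 library. The import genes took 0.295% of all counts in shControl 2, 0.241% and 0.21% in shControl 1 and 3, and 0.207%, 0.203% and 0.219% in the shPUS1 libraries. The library shControl 2 was the highest of the 6 for 25 of the 33 genes, or 75.8%, against 34.4% of all genes. Its median distance from the mean of shControl 1 and 3 was 0.59 on the log2 CPM scale over the import genes and 0.02 over all genes.

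Without shControl 2, 22 of the 33 genes, or 66.7%, had a log2 fold change below 0, against 52.1% of 15130 genes tested, and their median was -0.19, against -0.02. Here edgeR called 4 import genes lower, where it called 8.79% of all genes lower, and 1 higher, where it called 9.8% higher. The 4 lower genes were TOMM20, TOMM7, TIMM9 and PMPCA, the same that DESeq2 called with all libraries, and the higher gene was TOMM40L. In 13 genes the shPUS1 libraries all lay below shControl 1 and 3, and in 6 genes all above, where 26.2% and 24.5% of all genes were so separated.

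**Figure D1:**
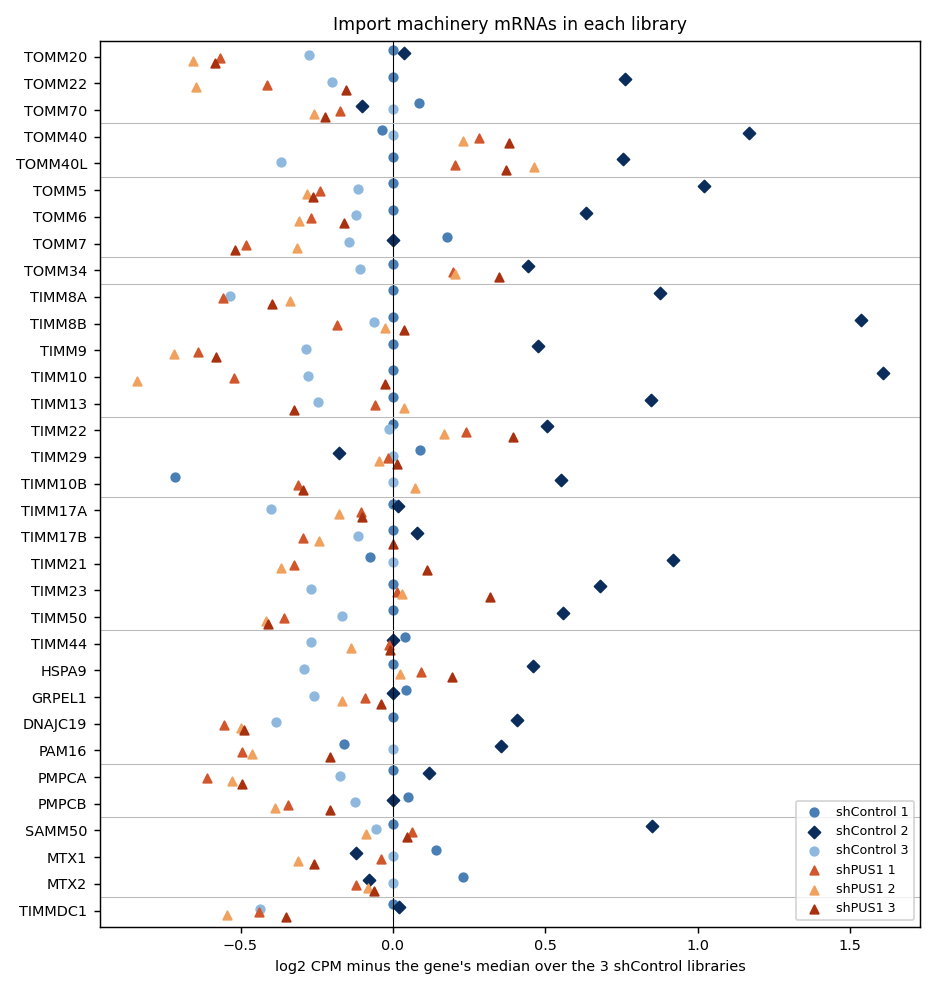
Levels of the 33 import mRNAs in each library, as log2 CPM minus the gene's median over the 3 shControl libraries, which is at 0 on the x axis; circles and diamonds stand for shControl, triangles for shPUS1, and lines part the role groups. The diamonds of shControl 2 lie farthest right for 25 genes, and the triangles lie left of all control symbols for 11 genes.

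**Figure D2:**
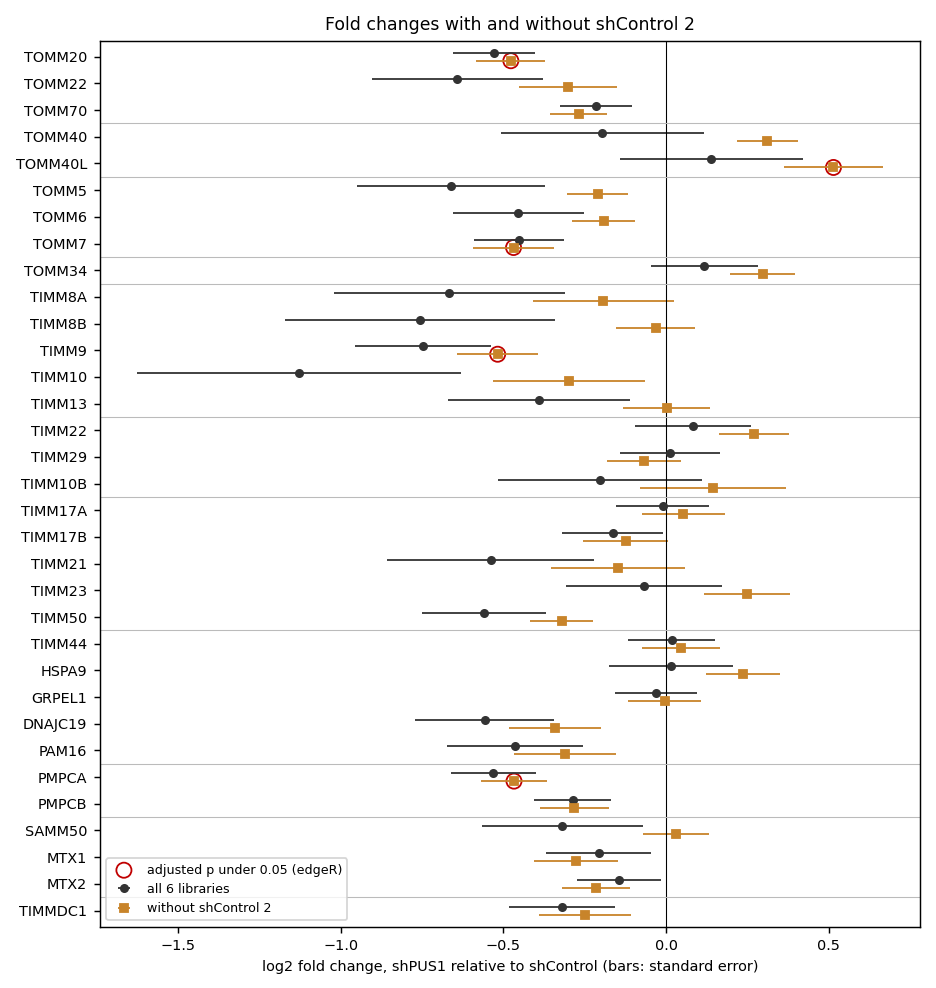
Log2 fold changes of shPUS1 relative to shControl for the 33 import genes, with standard errors as bars, from edgeR with all 6 libraries (black circles) and without shControl 2 (ochre squares). Red rings mark an adjusted p under 0.05, which 0 genes had with all libraries and 5 had without shControl 2.

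Exonic length was related to the fold change over all genes. In 5 bins of length with about equal numbers of genes, from the shortest, the median log2 fold change of all genes was -0.15, -0.11, -0.04, 0.00 and 0.11. The import genes were short, with 13 and 12 of them in the shortest and the next bin, where their medians were -0.45 and -0.21. The remaining bins held 3, 4 and 1 of them, with medians of -0.215, -0.43 and 0.01. The part of length in the fold changes of single genes was not tested beyond the alternative with the length trend removed, in which the median of the import genes was -0.26.

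Start regions were searched for the short sequences that factors of many mitochondrial genes are known to bind. RefSeq promoter windows (GRCh38.p14, 250 bases before to 50 after the start) were found for 30 of the 33 genes and for 27305 genes in all. The 27305 genes are more than the 14748 tested and so include genes too low to be tested here. All import genes were tested, so the 2 sets are unlike in expression. Shares over the tested genes alone were not computed. The ETS core, CCGGAAGT on either strand, known as the kind of sequence bound by GABPA, stood in 8 of the 30 windows, or 26.7%, against 4.95% of all windows. The NRF1 sequence GCATGCGC on either strand stood in 4, or 13.3%, against 3.68%, and the YY1 core AAGATGGC on either strand in 3, or 10.0%, against 3.52%. The GC box GGGCGG, on either strand, stood in 22, or 73.3%, against 48.3%. The ETS core was found in MTX2, TIMM10, TIMM10B, TIMM29, TIMMDC1, TOMM20, TOMM6 and TOMM70, and the NRF1 sequence in PAM16, TIMM10B, TIMM9 and TOMM7. The YY1 core was found in PMPCA and TIMM50, which had separated groups, and in TOMM40L, and its windows are not shown. A match of letters is a description and shows no binding. The windows below hold the ETS core or the NRF1 sequence, in genes whose shPUS1 libraries all lay below the shControl libraries. Each is from RefSeq, 5′ to 3′ on the gene's strand, with the match in capitals (for PAM16 the reverse complement). All these genes are on the minus strand except TOMM6, and the windows lie at chr1:235128841-235128870 (TOMM20), chr6:41787603-41787632 (TOMM6), chr3:100401175-100401204 (TOMM70), chr7:22822954-22822983 (TOMM7), chr14:58427641-58427670 (TIMM9) and chr16:4351348-4351377 (PAM16).
TOMM20, ETS core: gttgactgggaCCGGAAGTggcgtgtgctc
TOMM6, ETS core: gccggtagcagCCGGAAGTgccagaccgga
TOMM70, ETS core: tttcccttaacCCGGAAGTgatttccgccc
TOMM7, NRF1: atcgcaaccacGCATGCGCctactactgcc
TIMM9, NRF1: agacacaacacGCATGCGCgccaagaaact
PAM16, NRF1: actgaggcaatGCGCATGCccagcgccgta
Among the 10 genes with separated groups that had a window, 3 held the ETS core, 3 the NRF1 sequence, 2 the YY1 core and 6 the GC box. Among all 30 import genes with a window, these counts were 8, 4, 3 and 22. Whether the sequences go with lower levels in shPUS1 was not tested.

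The TOM receptors are the outer membrane proteins that precursors meet first. All 3 had log2 fold changes below 0, and TOMM20 came closest to the threshold of all import genes. TOMM20, which recognises presequences, lies on chromosome 1 from 235109341 to 235128837 and carries the ETS core shown above. It was at 343, 352.5 and 283 CPM in shControl replicates 1, 2 and 3 and at 232, 218 and 229 CPM in shPUS1. The highest shPUS1 library lay below the lowest shControl library, and shControl 1 and 2 were alike. The means were 326 ± 37.5 and 226 ± 7.23 CPM (SD, n = 3), and the log2 fold change was -0.53 (SE 0.13, edgeR adjusted p = 0.0623). Without shControl 2 it was -0.48, with an adjusted p of 0.0183, and DESeq2 gave an adjusted p of 0.00515 with all libraries. These fits called 8.79% and 5.68% of all genes lower. A share of 2.1% of the 100-base stretches of TOMM20 transcripts also occurs in other genes, a processed copy among them. TOMM22, the central receptor that holds the complex together, stood at a log2 fold change of -0.64 (adjusted p = 0.179), and -0.30 without shControl 2. TOMM70, the receptor for carrier precursors handed over by chaperones, had -0.21 (adjusted p = 0.262) and was separated between groups, with -0.27 and an adjusted p of 0.0657 without shControl 2.

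Both TOM channel genes were highest in shControl 2. TOMM40, the barrel that forms the pore, was at 85, 196 and 87.1 CPM in shControl replicates 1, 2 and 3 and at 106, 102 and 114 CPM in shPUS1. The shPUS1 libraries lay between shControl 1 and 3 on one side and shControl 2 on the other, so that the groups overlapped. For TOMM40 the log2 difference was -0.20 (SE 0.31, adjusted p = 0.718) with all libraries and 0.31 (SE 0.09, adjusted p = 0.0516) without shControl 2. Its paralogue TOMM40L, on chromosome 1 from 161225939 to 161230746, was at 13.1, 22.1 and 10.15 CPM in shControl and at 15.1, 18.1 and 16.9 CPM in shPUS1. Here too shControl 2 was the highest library and shControl 1 and 3 the lowest. The log2 difference of TOMM40L was 0.14 (SE 0.28, adjusted p = 0.78), and 0.51 (SE 0.15, adjusted p = 0.0488) without shControl 2. In that fit it was the only import gene called higher, where 9.8% of all genes were called higher.

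The small TOM subunits, which assemble around the pore, were all 3 separated between groups with shPUS1 lower. Of all genes tested, 17.3% were separated in this direction, and edgeR with all libraries called none of the small TOM subunits. TOMM7, on chromosome 7 from 22812628 to 22822852, is known to take part in the dynamics of the complex and in holding PINK1 at the outer membrane. It was at 56.6, 50.01 and 45.2 CPM in shControl and at 35.8, 40.2 and 34.9 CPM in shPUS1. The groups did not overlap, and shControl 2 lay between the other control libraries. TOMM7 had a fold change of -0.45 on the log2 scale (SE 0.14, edgeR adjusted p = 0.104), and -0.47 without shControl 2, with an adjusted p of 0.0327. DESeq2 gave an adjusted p of 0.0438 with all libraries. Calls of lower genes made up 8.79% of all genes in edgeR without shControl 2 and 5.68% in DESeq2. TOMM6 was at 101.0, 157 and 92.9 CPM in shControl and at 83.9, 81.7 and 90.4 CPM in shPUS1. The gap between the groups was small and shControl 2 was far above the rest. Its log2 fold change was -0.45 (adjusted p = 0.206), and -0.19 (adjusted p = 0.197) without shControl 2. Every 100-base stretch of the TOMM6 transcripts also occurs in an unnamed gene that overlaps it on the same strand and was listed at 143.6 to 231.4 counts, so the counts of TOMM6 are uncertain. TOMM5, also separated between groups, had -0.66 (adjusted p = 0.2), and -0.21 without shControl 2. TOMM34, a cytosolic cofactor that binds precursors and chaperones, was at 80, 109 and 74.3 CPM in shControl and at 91.7, 92 and 102 CPM in shPUS1. The shPUS1 libraries lay within the range of shControl, and its log2 fold change was 0.12 (adjusted p = 0.678), or 0.30 (adjusted p = 0.07) without shControl 2.

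The small TIM chaperones carry hydrophobic precursors through the intermembrane space, as TIMM9 with TIMM10 and TIMM8A with TIMM13. All 5 had log2 fold changes below 0, with a median of -0.75, and in all 5 shControl 2 was the highest library, at a median of 1.13 above the mean of shControl 1 and 3 on the log2 CPM scale. TIMM9, on chromosome 14 from 58408495 to 58427531, was at 25.3, 35.3 and 20.8 CPM in shControl and at 16.2, 15.4 and 16.9 CPM in shPUS1. It was the only one of the 5 with separated groups, where 17.3% of all genes were separated with shPUS1 lower. The library shControl 3 was the control library closest to shPUS1. Between the groups TIMM9 had a log2 fold change of -0.75 (SE 0.21, edgeR adjusted p = 0.0888), and -0.52 (SE 0.13, adjusted p = 0.0252) without shControl 2. DESeq2 gave an adjusted p of 0.0207 with all libraries. Without shControl 2 edgeR called 8.79% of all genes lower, and DESeq2 called 5.68%. TIMM9 overlaps KIAA0586 by 147 bases in antisense orientation, and whether counting used the strand is not stated. TIMM10, the partner of TIMM9, had the only log2 fold change beyond 1 in size among the import genes, -1.13 (SE 0.50, adjusted p = 0.202). Its level was 35.5 CPM in shControl 2, and 9.61 to 11.7 CPM in shControl 1 and 3, against 6.51 to 11.5 CPM in shPUS1. Without shControl 2 the log2 fold change of TIMM10 was -0.30 (adjusted p = 0.396).

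TIMM13 was at 30.1, 54.2 and 25.4 CPM in shControl and at 28.9, 30.9 and 24.0 CPM in shPUS1. The level of TIMM13 in shControl 2 was above all other libraries. Without that library the log2 fold change was 0.00 (SE 0.13), against -0.39 with it. TIMM8A, on the X chromosome and known from deafness-dystonia syndrome, was at 6.22, 11.4 and 4.29 CPM in shControl and at 4.23, 4.92 and 4.72 CPM in shPUS1. Its groups overlapped, and the log2 fold change was -0.67 (adjusted p = 0.274) or -0.19 (adjusted p = 0.562) without shControl 2. TIMM8B was at 16.6, 48.1 and 15.9 CPM in shControl and at 14.6, 16.2 and 17.0 CPM in shPUS1. Apart from shControl 2, the libraries of both groups lay together. TIMM8B had a log2 difference of -0.76 (adjusted p = 0.286) with that library and -0.03 (adjusted p = 0.876) without it. NKAPD1, on the opposite strand, overlaps TIMM8B by 351 bases and had 1092 to 1278 counts.

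Of the TIM22 translocase, which inserts carrier proteins into the inner membrane, 0 of 3 genes were separated between groups. Among all genes tested, 17.3% were separated with shPUS1 lower and 18.8% with shPUS1 higher. TIMM22, its channel subunit, was at 27.2, 38.6 and 26.9 CPM in shControl and at 32.0, 30.5 and 35.7 CPM in shPUS1. The shPUS1 libraries lay above shControl 1 and 3 and below shControl 2, and the log2 fold change was 0.08 (adjusted p = 0.793), or 0.27 (adjusted p = 0.117) without shControl 2. TIMM10B, a small chaperone bound to the translocase, was at 6.94, 16.7 and 11.4 CPM in shControl and at 9.18, 12.0 and 9.27 CPM in shPUS1. Its control libraries spread over a wider range than the shPUS1 libraries, and the log2 fold change was -0.20 (adjusted p = 0.707), which turned to 0.14 (adjusted p = 0.68) without shControl 2. TIMM29 had 0.01 (adjusted p = 0.969), the largest adjusted p of the import genes, and -0.07 without shControl 2.

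The TIM23 translocase is the gate of the inner membrane for precursors with a presequence, and all 5 of its genes had log2 fold changes below 0. TIMM50, the receptor subunit, was at 72.5, 107 and 64.6 CPM in shControl and at 56.5, 54.3 and 54.5 CPM in shPUS1. It was the only one of the 5 whose groups did not overlap, where 17.3% of all genes were so separated with shPUS1 lower. TIMM50 had a log2 difference of -0.56 (SE 0.19, adjusted p = 0.129), and -0.32 (SE 0.10, adjusted p = 0.0512) without shControl 2. TIMM23, the channel subunit, was at 77.3, 124 and 64.2 CPM in shControl and at 78.1, 78.9 and 96.3 CPM in shPUS1. Its shPUS1 libraries lay above shControl 1 and 3 and below shControl 2, and the sign of its log2 fold change turned from -0.07 to 0.25 (adjusted p = 0.221) without shControl 2. TIMM21, the link to the respiratory chain complexes, had -0.54 (adjusted p = 0.317), and -0.15 without shControl 2.

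The subunits TIMM17A and TIMM17B are paralogues that occur in alternative forms of the translocase. TIMM17A was at 92.9, 93.9 and 70.3 CPM in shControl and at 86.3, 82.2 and 86.7 CPM in shPUS1, and its log2 fold change was -0.01 (SE 0.14). TIMM17B, on the X chromosome, was at 19.1, 20.2 and 17.6 CPM in shControl and at 15.6, 16.1 and 19.1 CPM in shPUS1, and its fold change was -0.16 on the log2 scale (SE 0.16, adjusted p = 0.529). Without shControl 2 these were 0.05 for TIMM17A and -0.12 for TIMM17B. The groups of both genes overlapped. PQBP1, which spans TIMM17B on the opposite strand, had 406 to 957 counts.

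In the import motor, 2 of 5 genes were separated between groups with shPUS1 lower, where 17.3% of all genes were so separated. HSPA9, the mitochondrial Hsp70 that drives uptake, was at 478, 657 and 390.5 CPM in shControl and at 509, 486 and 547 CPM in shPUS1. The shPUS1 libraries lay inside the control range, and its log2 fold change was 0.01 (SE 0.19, adjusted p = 0.968), or 0.24 (adjusted p = 0.176) without shControl 2. TIMM44, which anchors HSPA9 to the channel, and its nucleotide exchange factor GRPEL1 had 0.02 and -0.03, and 0.05 and -0.005 without shControl 2. In contrast, DNAJC19, a J-domain protein known from dilated cardiomyopathy with ataxia, was at 19.1, 25.3 and 14.7 CPM in shControl and at 13.02, 13.5 and 13.6 CPM in shPUS1. The groups of DNAJC19 did not overlap, although shControl 3 lay close to the shPUS1 libraries. DNAJC19 had a log2 difference of -0.56 (SE 0.21, adjusted p = 0.161), and -0.34 (adjusted p = 0.126) without shControl 2. PAM16, the J-like regulator of the motor, had -0.47 (adjusted p = 0.209) with separated groups and -0.31 (adjusted p = 0.199) without shControl 2, and 17.6% of its transcript stretches also occur in the readthrough gene CORO7-PAM16. PAM16 also overlaps CORO7 by 1066 bases on the same strand and GLIS2 by 8049 bases on the opposite strand. These had 422 to 524 and 292 to 492 counts, against 126 to 241 for PAM16.

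Both genes of the processing peptidase, which cuts off presequences in the matrix, were separated between groups with shPUS1 lower. Of all genes tested, 17.3% were separated in this direction. PMPCA, the subunit that binds the substrate, lies on chromosome 9 from 136410641 to 136423761. It was at 52.9, 57.4 and 46.9 CPM in shControl and at 34.6, 36.7 and 37.5 CPM in shPUS1. All 3 control libraries lay clear of the shPUS1 libraries, and shControl 2 was near the others. The means of PMPCA were 52.4 ± 5.28 and 36.2 ± 1.48 CPM (SD, n = 3), and the log2 fold change was -0.53 (SE 0.13, edgeR adjusted p = 0.0674). It was -0.47 without shControl 2, with an adjusted p of 0.0168, and DESeq2 gave an adjusted p of 0.0085 with all libraries. These fits called 8.79% and 5.68% of all genes lower. PMPCB, the catalytic subunit, was at 87.8, 84.9 and 77.8 CPM in shControl and at 66.8, 64.8 and 73.6 CPM in shPUS1. The groups of PMPCB did not overlap. Its log2 fold change was -0.29 (SE 0.12, adjusted p = 0.179), and -0.28 (adjusted p = 0.0951) without shControl 2. PMPCB overlaps PSMC2 on the same strand and DNAJC2 on the opposite strand, with 1322 to 3080 and 309.5 to 851 counts.

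In the SAM complex, 0 of 3 genes were separated between groups with all libraries. Genes separated with shPUS1 lower were 17.3% of all genes tested, and those with shPUS1 higher 18.8%. SAMM50, its barrel protein, showed -0.32 on the log2 scale (adjusted p = 0.437), and 0.03 without shControl 2. MTX1, a metaxin, was at 19.3, 16.1 and 17.5 CPM in shControl and at 17.0, 14.1 and 14.6 CPM in shPUS1. MTX2, its partner, was at 64.1, 51.8 and 54.6 CPM in shControl and at 50.2, 51.6 and 52.4 CPM in shPUS1. For both metaxins shControl 2 was the lowest control library, and the shPUS1 libraries overlapped with it. Their log2 fold changes were -0.21 and -0.15, and -0.28 and -0.22 without shControl 2, with adjusted p of 0.165 and 0.178. A share of 13.3% of the transcript stretches of MTX1 also occurs in its pseudogene MTX1P1.

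TIMMDC1 carries a TIM domain and is known as an assembly factor of complex I of the respiratory chain. It was at 36.4, 36.9 and 26.9 CPM in shControl and at 26.8, 24.9 and 28.5 CPM in shPUS1. The library shControl 3 fell among the shPUS1 libraries, so that the groups overlapped. TIMMDC1 had a log2 difference of -0.32 (SE 0.16, adjusted p = 0.257), and -0.25 (adjusted p = 0.243) without shControl 2.

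The balance of the 3 paralogue pairs was compared as a share of FPKM (fragments scaled to exonic length and library total), a level per length. TIMM17B made up 21.97%, 22.7% and 25.6% of TIMM17A and TIMM17B together in shControl and 19.8%, 21.2% and 23.2% in shPUS1. The means of 23.4% ± 1.89 and 21.4% ± 1.71 (SD, n = 3) came from libraries that overlapped between the groups (exact two-sided permutation test, p = 0.3). TIMM8A made up 12.4%, 8.24% and 9.31% of TIMM8A and TIMM8B in shControl and 9.88%, 10.3% and 9.54% in shPUS1 (exact permutation test, p = 1). TOMM40L made up 14.45%, 11.02% and 11.3% of TOMM40 and TOMM40L in shControl and 13.5%, 16.2% and 14.1% in shPUS1, with means of 12.3% ± 1.90 and 14.6% ± 1.44 (SD, n = 3; exact permutation test, p = 0.3). In each pair the less abundant partner stayed under 26% of the sum in all 6 libraries.

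**Figure D3:**
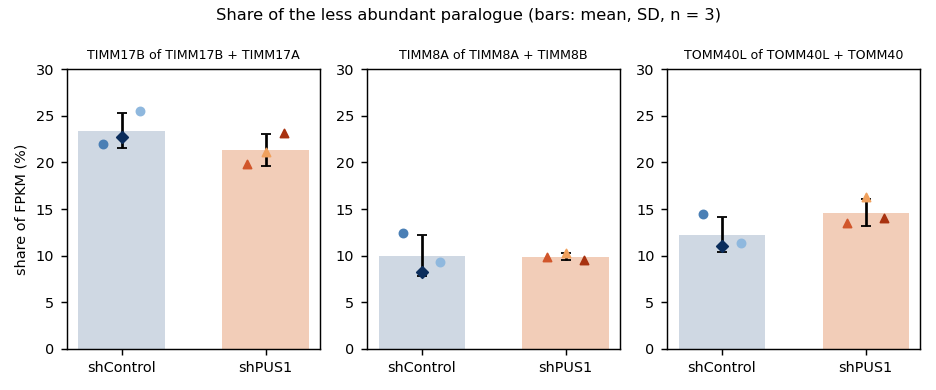
Share of the less abundant paralogue in the summed FPKM of its pair (y axis, percent), in shControl and shPUS1. Bars give the mean, error bars the SD (n = 3) and points the libraries, which overlap between the groups in all 3 pairs.

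The levels of the import genes spanned 2 orders of magnitude per length. On the FPKM scale TOMM6 was the highest, at 128 to 239 over the 6 libraries, followed by TOMM20 at 63.2 to 102, TIMM23 at 55.6 to 101 and HSPA9. The place of TOMM6 is uncertain, because every 100-base stretch of its transcripts also occurs in an overlapping gene. The lowest were TIMM8A, with a mean of 1.93 FPKM, and TIMM21, with 1.26 FPKM. Only 2 of the 32 neighbouring pairs in this order had ranges over the 6 libraries that did not overlap, TOMM6 with TOMM20 and MTX2 with GRPEL1. Of the 33 genes, 28 lay above the 50th percentile of mean FPKM of the genes tested, and their median percentile was 78.5. In shPUS1 TIMM23 took the second place, ahead of TOMM20, whose libraries were at 63.2 to 66.4 FPKM against 64.7 to 80.2 for TIMM23, so that these places did not differ beyond the spread.

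**Figure D4:**
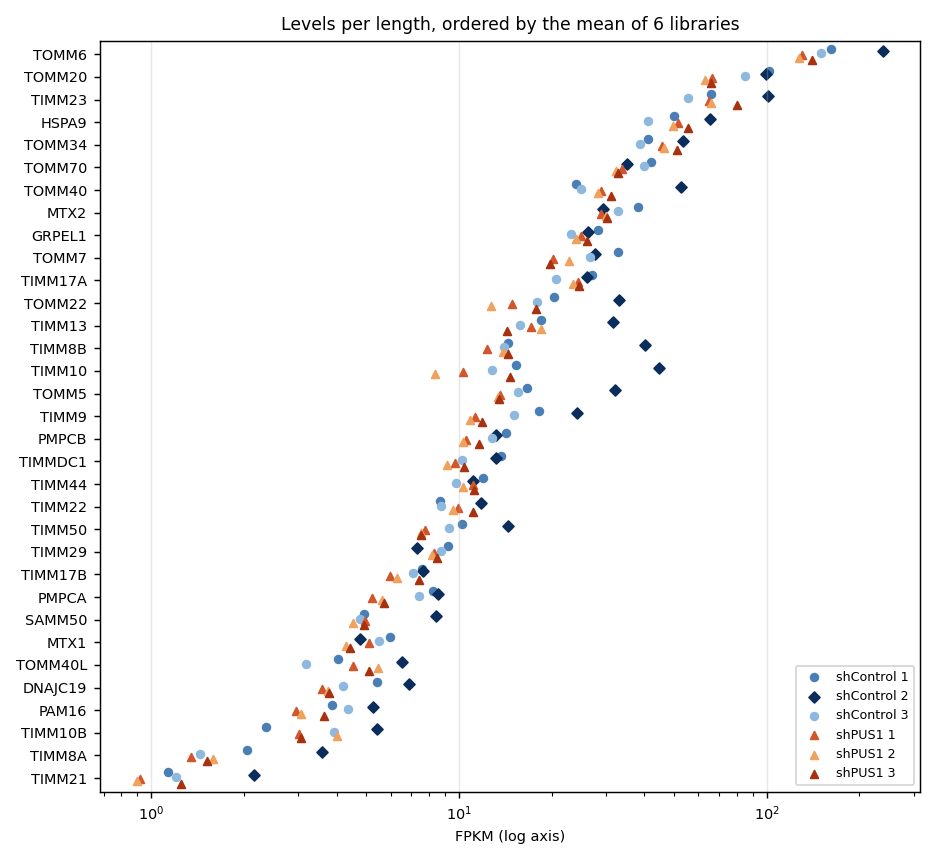
Levels of the 33 import mRNAs in FPKM (x axis, log scale) in each library, ordered by the mean of the 6 libraries, with circles and diamonds for shControl and triangles for shPUS1. TOMM6, whose counts are uncertain, is at the top, at 128 to 239 FPKM. The diamonds of shControl 2 stand off to the right for the small TIM chaperones and TOMM40.

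Further genes of the import pathway, chosen with earlier results of these data known, were set beside the 33. Of 18 such genes 17 were tested, and 0 passed an adjusted p under 0.05 in edgeR with all libraries. In that fit 0.841% of all genes were called lower and 1.74% higher. Of the 17 genes tested, 16 had log2 fold changes below 0, where 52.7% of all genes had, with a median of -0.29. Without shControl 2, 13 of 17 were below 0 and the median was -0.16. At an unadjusted p under 0.05, 2 of 17 were lower, MIPEP and AGK, where 12.8% of all genes were. MIPEP, the peptidase that trims some presequences after the processing peptidase, was at 10.5, 12.4 and 8.93 CPM in shControl and at 6.34, 7.33 and 6.43 CPM in shPUS1. Its groups did not overlap, and the log2 fold change was -0.66 (SE 0.20, edgeR adjusted p = 0.1), or -0.54 (adjusted p = 0.0451) without shControl 2. In DESeq2 MIPEP was called lower as well, with an adjusted p of 0.0401. Of the 17 genes, 1 was called lower without shControl 2 and 1 in DESeq2, where 8.79% and 5.68% of all genes were. AGK, a TIM22 subunit with lipid kinase activity, had -0.41 (adjusted p = 0.191), and CHCHD4, the oxidoreductase of the intermembrane space pathway, -0.42 (adjusted p = 0.22). Without shControl 2 these were -0.24 and -0.26.

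Among 8 tested genes that watch over import, PINK1 was called higher by edgeR with all libraries and the other 7 were not called. In that fit 1.74% of all genes were called higher and 0.841% lower. PINK1, a kinase that is taken up and degraded in healthy mitochondria and gathers at the TOM complex when import fails, was at 108, 82.0 and 99.0 CPM in shControl and at 179, 185 and 176 CPM in shPUS1. Every shPUS1 library was above every shControl library by a wide gap, and shControl 2 was the lowest. PINK1 had a log2 difference of 0.90 (SE 0.13, edgeR adjusted p = 0.0319), and 0.79 (adjusted p = 0.0019) without shControl 2. These are mRNA levels, whereas uptake and degradation act on the PINK1 protein. The protein and import itself were not measured in these data. ATF5, a transcription factor of the mitochondrial stress response, had a log2 difference of -1.40 (adjusted p = 0.189) that moved with 1 library. It was at 26.1 CPM in shControl 2 and at 4.17 to 6.13 CPM in the other libraries, and its log2 fold change was -0.27 (adjusted p = 0.381) without shControl 2. The other 6 tested genes, ATAD1, EIF2AK1, DELE1 and the proteases YME1L1, LONP1 and OMA1, had adjusted p between 0.202 and 0.744.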

How the data were processed

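Poly(A)-selected RNA of 3 shControl and 3 shPUS1 libraries was analysed. The deposited table gives estimated counts per gene, not normalized, for which the submitters' processing notes name HISAT2 and HTSeq 0.6.1. Of the counts above 0, 29.8% to 31.8% per library are not whole, and how fractions arose is not stated. The deposited FPKM values were made by the authors from these counts, the exonic length and the library total. The genome build and strandedness are not given in the sources used here; coordinates are those of the table, and all 33 genes overlap the same gene in GENCODE release 29 (GRCh38).

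Rounded counts of the 14748 genes that passed filterByExpr were scaled by TMM. Groups were compared by quasi-likelihood tests in edgeR 4.0.16 (R 4.3.3), with Benjamini-Hochberg adjustment over all these genes. The prior count for log2 CPM was 2. DESeq2 1.42.0 and limma 3.58.1 (log2 of FPKM plus 1 or 0.1, mean FPKM of at least 1) served as alternatives. Where a library was left out, DESeq2 was not run. Percentages of shared stretches refer to 100-base stretches of GENCODE transcripts.

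The members and lists were chosen with earlier results of these data known. Values in every library are given for genes called in any direction, for the gene with the smallest p and the gene with the highest FPKM of each role, for the paralogue pairs and for PUS1.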

Additional observations from a re-analysis of the deposited data

How the results depend on the processing

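The number of import genes called lower, 0 in edgeR with all libraries, was 4 in DESeq2, 2 with no filter on low counts, 1 with limma on log2 of FPKM plus 1 and 3 at an adjusted p under 0.1. With each library left out in turn it was 0 to 4, and the number called higher 0 to 1, the highest of both without shControl 2. TOMM20 was also called without shControl 3. Over all genes, 0.841% were called lower in edgeR with all libraries, 5.68% in DESeq2 and 8.79% without shControl 2. Without shControl 2, 9.8% of all genes were called higher. The shares over all genes were not computed for the other settings. The number of genes with separated groups was, with a library left out, 11 to 19 in the lower direction (19 without shControl 3, 17 without shPUS1 3) and 0 to 6 in the higher (6 without shControl 2). With the length trend removed, 10 genes were separated and lower and 1 was separated and higher. With fewer libraries, groups separate more readily. Without shControl 2, 26.2% of all genes were separated and lower and 24.5% higher, against 17.3% and 18.8% with all libraries. For the other settings the shares of separated genes over all genes were not computed. The median log2 fold change of the import genes kept its sign under all alternatives and was -0.46 to -0.19 with a library left out. Where the cause of a change is not given by fewer libraries or genes, it was not tested.

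The log2 fold change of PUS1 was -1.001 with limma on FPKM plus 1 (adjusted p = 0.0544) and -1.48 with FPKM plus 0.1 (adjusted p = 0.0514). With a library left out it was -1.86 to -1.20, and the adjusted p was 0.0905 without shControl 1 and 0.208, 0.253 and 0.192 without shPUS1 1, 2 and 3. Libraries that share a replicate number did not deviate together (residual correlations of -0.053, -0.026 and -0.19), and the numbers were not taken as a pairing. With a replicate block the log2 fold change of PUS1 was -1.55 (adjusted p = 0.0969), 0 import genes were called and their median was -0.29.

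For the 23 genes given in every library, 291 of 322 alternatives kept direction and side of the threshold, 13 passed it and 18 turned the sign. HSPA9 was at -0.0009 with library totals in place of TMM and -0.0917 with the length trend removed, TIMM17A at 0.0008 with the block and 0.0546 with the trend removed, and TIMM23 at 0.0587 with the trend removed. With a library left out, the log2 fold change ran from -0.15 to 0.24 for HSPA9, from -0.0149 to 0.27 for TIMM22, from -0.14 to 0.0525 for TIMM17A, from -0.40 to 0.31 for TOMM40, from -0.60 to 0.0012 for TIMM13, from -0.47 to 0.14 for TIMM10B, from -0.26 to 0.25 for TIMM23 and from -0.0876 to 0.51 for TOMM40L. The difference of the TIMM8A share, -0.0993 percentage points, ran from -0.976 to 1.12 with a library left out (1.12 without shControl 1 and 0.0811 without shPUS1 3).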

Other observations

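The MICOS bridge, the inner membrane complex that shapes cristae and touches the SAM complex, was measured with 8 genes. All 8 were tested and 0 were called by edgeR with all libraries, where 1.74% of all genes were called higher and 0.841% lower. At an unadjusted p under 0.05 there were 0 as well, against 12.6% and 12.8% of all genes. The log2 fold change was below 0 for 6 of them, and the median was -0.36, or -0.13 without shControl 2. MICOS10, which had the smallest adjusted p, was at 46.7, 61.6 and 30.2 CPM in shControl and at 30.1, 37.8 and 28.0 CPM in shPUS1, with a log2 fold change of -0.53 (adjusted p = 0.238), and -0.28 without shControl 2. Its groups overlapped. Of the 8 genes, 2 were separated with shPUS1 lower, CHCHD6 (-0.33) and APOO (-0.43), and 1 with shPUS1 higher, APOOL (0.29, and 0.14 without shControl 2), where 17.3% and 18.8% of all genes were so separated. The values of CHCHD6 and APOO were -0.26 and -0.20 without shControl 2.

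Of 10 genes known as regulators of mitochondrial genes, 0 were called by edgeR with all libraries, where 1.74% of all genes were called higher and 0.841% lower. The groups were separated with shPUS1 higher for 2 of the 10 and with shPUS1 lower for 1, against 18.8% and 17.3% of all genes. GABPA, NRF1 and YY1, whose sequences were searched in the start regions, had log2 differences of -0.05, -0.13 and 0.32 (adjusted p = 0.858, 0.675 and 0.171), and of 0.11, 0.05 and 0.23 without shControl 2, so that the first 2 changed sign. With all libraries the groups of YY1 were separated with shPUS1 higher, and those of GABPA and NRF1 overlapped. PPARGC1A, a coactivator of mitochondrial genes, was at 8.51, 2.57 and 10.4 CPM in shControl and at 17.1, 19.2 and 18.1 CPM in shPUS1. Its groups did not overlap and shControl 2 was the lowest library. The log2 fold change of PPARGC1A was 1.35 (standard error 0.43, edgeR adjusted p = 0.114), 0.93 (adjusted p = 0.00451) without shControl 2, and DESeq2 gave an adjusted p of 0.0193 with all libraries. Called higher were 9.8% of all genes without shControl 2 and 7.28% in DESeq2. PPARGC1A was low, with a mean of 1.16 FPKM, at percentile 24.3 of the genes tested. MYC was called lower without shControl 2, with a log2 fold change of -0.58 (adjusted p = 0.015), where 8.79% of all genes were called lower. With all libraries it was not called, at -0.28 (edgeR adjusted p = 0.585, DESeq2 adjusted p = 0.588).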
